A study of Homo sapiens with 18 samples.

Results

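The BCL2 family described here consists of 10 genes that set the threshold for mitochondrial cell death, of 20263 genes in the deposited table. They were taken by name, as the rows whose Ensembl identifier maps to MCL1, BCL2L1, BCL2L2, BAX, BAK1, BCL2L11, BID, BAD, BBC3 or PMAIP1. RNA sequencing counts were available for 18 libraries in 6 groups of 3, from human cancer cells whose labels name the liver cancer line MHCC-97H, the breast cancer line MDA-MB-231 and the colon cancer line HCT-116. Each line was given as wild type, grown in DMEM with 10% fetal bovine serum, and exposed for 24 h to 20 nM H3B-8800, a compound that binds and modulates SF3B1 of the splicing machinery, or to the solvent DMSO. The groups were MHCC-97H with H3B-8800 and with DMSO, MDA-MB-231 with H3B-8800 and with DMSO, and HCT-116 with H3B-8800 and with DMSO. Separate cultures are not stated for the 3 libraries in a group, so p-values measure only how far these samples spread, which may be technical.

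BCL2 family proteins meet at the outer membrane of the mitochondrion. The pro-survival members MCL1, BCL2L1 (BCL-XL) and BCL2L2 (BCL-w) hold a groove into which a short helix of the other members, the BH3 segment, can bind. The effectors BAX and BAK1 permeabilise the membrane when freed or activated, which lets cytochrome c out and starts the caspases, and the BH3-only members BCL2L11 (BIM), BID, BAD, BBC3 (PUMA) and PMAIP1 (NOXA) occupy the groove or activate the effectors. MCL1 protein and mRNA turn over fast, and skipping of its middle exon, known for SF3B1 modulators, gives a short form that promotes death. Reads were counted per gene, so the long and short forms of MCL1, and the splice forms of BCL2L1 and BCL2L11, cannot be told apart here.

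The BH3 segment is what the pro-survival, effector and BH3-only members share, and its coding sequence is given for MCL1, for the members that passed the test below and for PMAIP1, whose BH3 segment binds MCL1. Each stretch has 45 bases on the coding strand, read from GENCODE release 29 transcripts on GRCh38, and the capitals mark the first and the last of the 6 codons at the core of the segment. The last codon in capitals was GAT in MCL1 and GAC in the other members shown. BCL2L2, whose stretch is not shown, has GAT there too.
MCL1: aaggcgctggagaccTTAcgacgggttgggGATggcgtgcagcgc
BCL2L1: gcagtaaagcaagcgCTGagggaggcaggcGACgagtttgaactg
BAK1: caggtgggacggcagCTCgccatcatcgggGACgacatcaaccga
BID: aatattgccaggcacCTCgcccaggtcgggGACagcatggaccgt
PMAIP1: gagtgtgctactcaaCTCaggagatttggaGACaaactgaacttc
The stretch of MCL1 lies at chr1:150578865-150578909 on the minus strand, in exon 1 of 3. That of BCL2L1 lies at chr20:31721922-31721966 (minus strand, exon 2), that of BAK1 at chr6:33575387-33575431 (minus strand, exon 4), that of BID at chr22:17739415-17739459 (minus strand, exon 4) and that of PMAIP1 at chr18:59902658-59902702 (plus strand, exon 2). The stretches ranged in GC content (the share of G and C bases), with 66.7% in MCL1, 57.8% in BCL2L1, 64.4% in BAK1, 62.2% in BID and 44.4% in PMAIP1. Over all annotated transcripts of a gene, weighted by their length, the order differed. MCL1 was at 45.7%, PMAIP1 at 43.6%, BID at 51.6%, BCL2L1 at 56.2% and BAK1 at 58.7%.

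Library totals ran from 28232315 to 41488278 counts, and all 10 genes passed the filter on low counts that left 14234 genes. MCL1 was measured with 13600 to 47449 counts a library, BCL2L1 with 3373 to 5084 and BCL2L2 with 86 to 2083. Marker genes did not match the line labels. Over 12542 genes the 36 pairs of an MDA-MB-231 with an HCT-116 labelled library correlated at a median r of 0.99 (0.983 to 0.992), so the pair of labels shared one profile, while MHCC-97H libraries against either had a median r of 0.644 (72 pairs, 0.618 to 0.663); genes are not independent replicates and these r carry no p. Of 10 liver markers 7 in the DMSO libraries and 8 in the H3B-8800 libraries labelled MHCC-97H were at 0, among them ALB and APOA1, and the list summed to 4.22 to 5.59 CPM there (counts scaled to a common total, here that of the library) against 194 to 255 CPM under the other labels. TF (157 and 166 CPM on average under MDA-MB-231 and HCT-116) and HNF4A (28.6 and 35.7 CPM) carried most of the latter. APOA1, APOA2, TTR and SERPINA1 averaged at most 0.322 CPM under any label. The 9 measured intestinal markers summed to at most 0.1695 CPM under the MHCC-97H label and to 1599 to 1697 CPM under both other labels, also the one that names a breast line. KRT20, LGALS4, VIL1 and CDH17 carried that sum, while CDX1 was at 0 in every library and GPA33 and PHGR1 averaged at most 0.132 CPM under any label. The 8 breast markers summed to 6.43 to 13.0 CPM under the MHCC-97H label, 94.0 to 119 CPM under MDA-MB-231 and 88.9 to 125 CPM under HCT-116, under these last labels chiefly from GATA3 and TRPS1. The 7 epithelial markers summed to 1406 to 1638 CPM under the MHCC-97H label and 4502 to 5642 CPM under the others. EPCAM went the other way, at 16.3 CPM on average under MHCC-97H and at most 0.081 CPM under the others. The 8 mesenchymal markers summed to 1391 to 1531 CPM and 8450 to 10030 CPM in that order. FN1 averaged 130 CPM under MHCC-97H against 8722 and 9125 CPM, and VIM 1187 against 19.6 and 22.05 CPM. Leukocyte markers summed to at most 7.94 CPM in any library. Groups are therefore named by their labels, and MDA-MB-231 and HCT-116 cannot be read as independent lines.

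MCL1 was the most abundant member per length under every label, and it set the MHCC-97H libraries apart together with BAK1. Divided by exonic length, which allows levels of different genes to be compared, MCL1 averaged 268 ± 8.06 CPM per kb over the 6 libraries labelled MHCC-97H and 100.3 ± 3.83 CPM per kb over the 12 others (SD). BCL2L1 followed among the pro-survival genes, with 36.6 ± 4.29 and 35.5 ± 2.48 CPM per kb, and BCL2L2 came last, with 6.68 ± 7.70 and 2.16 ± 2.61 CPM per kb. MCL1 thus held a median of 86.4% of the pro-survival transcripts per length under the MHCC-97H label (81.7% to 89.7%) and 73.1% under the others (69.2% to 74.9%). Among the effectors BAK1 had 82.0 ± 9.81 CPM per kb in MHCC-97H libraries, above BAX with 17.8 ± 1.65. Under the other labels the order was the opposite, with BAK1 at 14.3 ± 1.27 and BAX at 25.8 ± 1.92 CPM per kb. BAK1 accordingly made a median of 82.3% of the effector transcripts per length under the MHCC-97H label and 36% under the others, and the ranges of its share (80.7% to 83% and 32.6% to 38.1%) lay apart.

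BH3-only genes were lower than MCL1 throughout. BAD, which binds BCL-XL rather than MCL1, led them under both kinds of label with 22.6 ± 3.70 CPM per kb in the MHCC-97H libraries and 15.6 ± 1.78 in the others. BID, cut by caspase 8 to its active form, was next with 10.5 ± 1.33 and 12.0 ± 0.948 CPM per kb. Both of the genes next in order, the p53 targets PMAIP1 (5.56 ± 0.619 CPM per kb) and BBC3 (5.24 ± 0.63), lay within each other's spread under the MHCC-97H label. Under the other labels BBC3 stood at 8.64 ± 3.76 and PMAIP1 at 7.04 ± 0.486 CPM per kb, again within the spread. BCL2L11, whose protein binds every pro-survival member, was the lowest of the BH3-only genes per length, with 2.43 ± 0.276 and 1.74 ± 0.898 CPM per kb. Its exonic length sums many alternative exons, which lowers a level per length.

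**Figure D1:**
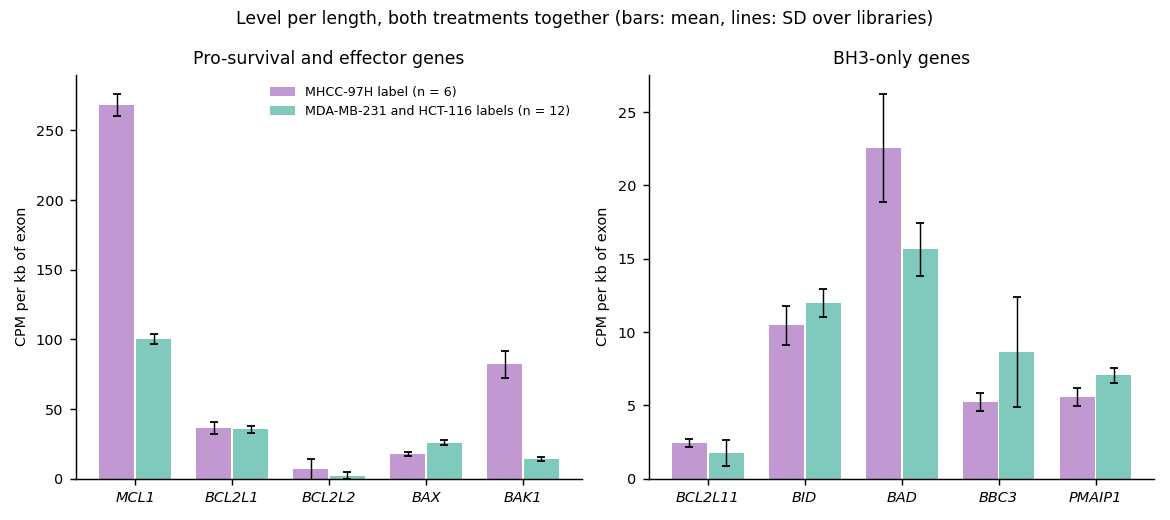
Level of each gene in CPM per kb of exon, from 0, for libraries labelled MHCC-97H (n = 6, purple) and MDA-MB-231 or HCT-116 (n = 12, green), both treatments together; bars are means and lines SD. MCL1 is the tallest bar under both kinds of label, and BAK1 lies above BAX only under the MHCC-97H label.

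Between DMSO libraries edgeR called 6 of the 10 genes different under the MHCC-97H label from the mean of the other labels, 4 higher and 2 lower. This says little about the family, since 84.6% of all tested genes were called in this comparison (40.7% higher and 43.9% lower). BAK1 had 196, 205 and 201 CPM in the DMSO libraries labelled MHCC-97H, against 27.5 to 33.0 CPM in the 6 others. All of its MHCC-97H values lay far above the rest, 6.55-fold in the fit (log2 difference 2.71, SE 0.07, edgeR adjusted p = 7.224e-15). MCL1 had 1131, 1162 and 1155 CPM against 416 to 449 CPM, a log2 difference of 1.40 (SE 0.04, adjusted p = 1.593e-14), with no overlap. BAD was 0.63 higher on the log2 scale (SE 0.13, adjusted p = 0.000297) and BCL2L1 0.24 higher (SE 0.06, adjusted p = 0.0023), BAX lay at -0.39 (SE 0.07, adjusted p = 0.00012) and PMAIP1 at -0.30 (SE 0.10, adjusted p = 0.0108). BID, at 0.01 (SE 0.05), was not called. The calls of BAK1, MCL1 and BAX held under every scaling tried and with a trend on GC content and length removed. The PMAIP1 call was lost with that trend removed (-0.04, adjusted p = 0.68) and without MHCC-97H DMSO replicate 3 (-0.18, adjusted p = 0.0959). BID was called lower with library totals as the scaling (-0.26, adjusted p = 0.00051) and higher with the trend removed (0.15, adjusted p = 0.0262), so its direction depended on the processing. BCL2L1 turned to -0.04 with library totals, and with the trend removed BAD was called lower (-0.55) and BBC3 was called lower too (-1.11, adjusted p = 0.0174). Library totals and the trend removal each gave 3 members higher and 3 lower. With library totals the median of all genes moved to -0.353, against -0.083 with the TMM factors used elsewhere. For DMSO libraries of the label MDA-MB-231 against HCT-116 no member was called (edgeR, 0.0351% of genes called), and 1 of 10, BID, had an unadjusted p under 0.05, as did 588 genes in all. DESeq2 and limma voom also called 0.

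**Figure D2:**
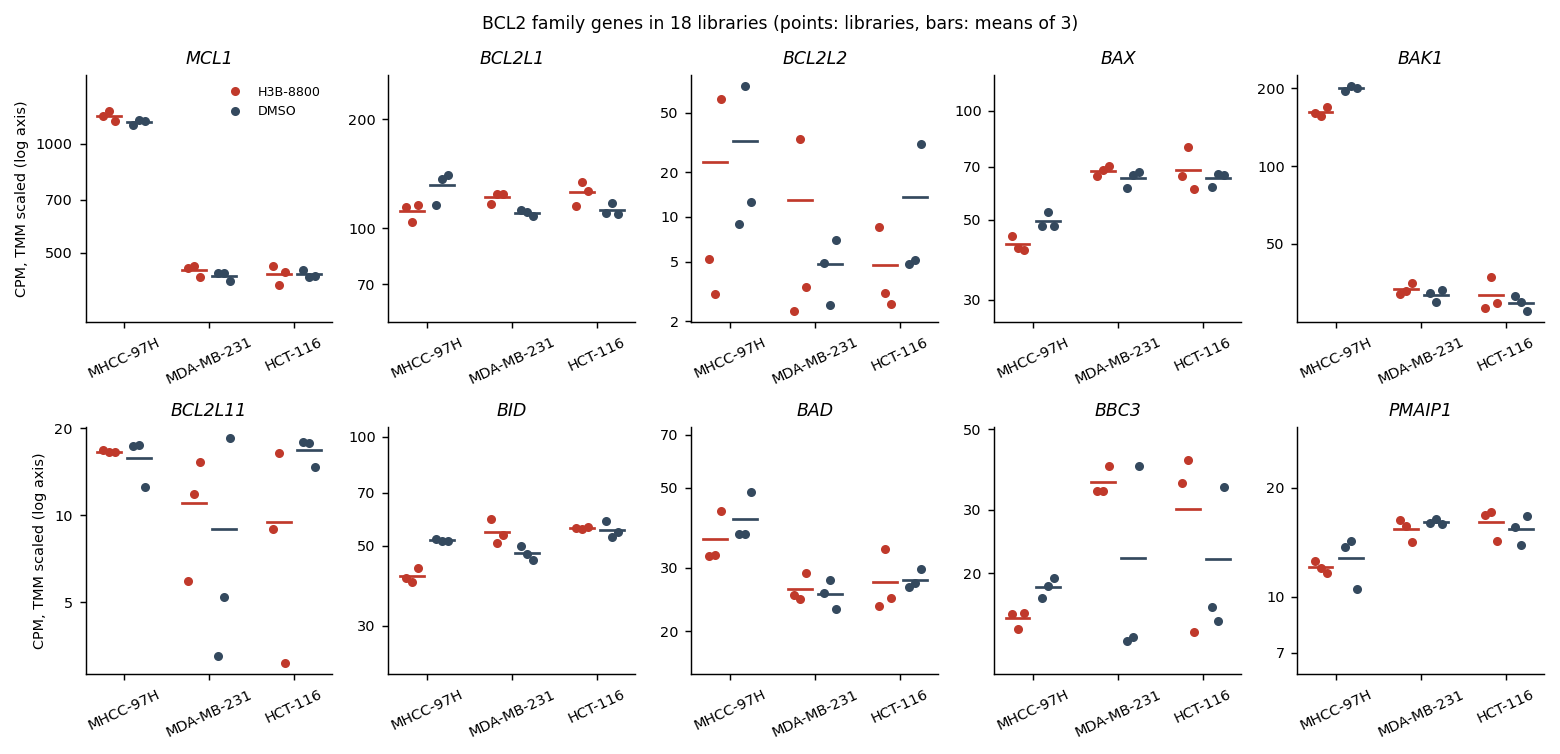
CPM scaled by TMM in each of the 18 libraries (points, log axis) with the mean of 3 (bars), H3B-8800 in red and DMSO in dark blue, by label. MCL1 and BAK1 stand higher under the MHCC-97H label, while BCL2L2, BCL2L11 and BBC3 scatter widely within groups.

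H3B-8800 left the total of MCL1 reads nearly level under each label. In libraries labelled MHCC-97H MCL1 had 1196, 1230 and 1158 CPM with H3B-8800, against 1131, 1162 and 1155 CPM with DMSO. The groups overlapped by a single value, and the log2 fold change was 0.06 (SE 0.05, edgeR adjusted p = 0.4227), with a 95% interval of the change from -3.08% to 11.5%. Under the MDA-MB-231 label MCL1 had 454, 459 and 428 CPM with H3B-8800 and 439.9, 441 and 416 CPM with DMSO (log2 fold change 0.05, SE 0.05, adjusted p = 0.86). Under the HCT-116 label it had 460.1, 406 and 444 CPM with H3B-8800 and 449, 429 and 431 CPM with DMSO, a log2 fold change of 0.0013 (SE 0.05, adjusted p = 1) with an interval from -6.68% to 7.36%. These intervals bound a change of the gene total, and a change in the ratio of its splice forms within the total cannot be seen. In 2 alternatives MCL1 was called higher under the MHCC-97H label. These were library totals as the scaling (0.19, SE 0.05, adjusted p = 0.0189) and a fit of the 6 MHCC-97H libraries alone (0.12, SE 0.03, adjusted p = 0.0282). Once the GC and length trend was taken out, it was at -0.03 and not called.

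Under the MHCC-97H label 3 of the 10 genes were called, all lower after H3B-8800, namely BCL2L1, BAK1 and BID. Among all genes 27.6% were called in this comparison, 14.7% lower and 12.9% higher, so the members' share is near that of the background. The members' median log2 fold change was -0.23, against -0.06 for all tested genes. In bulk RNA fewer cells of a kind and less RNA per cell cannot be told apart, which holds for each of these values.

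BCL2L1, which holds BAX and BAK1 in check beside MCL1, had 114, 104 and 116 CPM with H3B-8800, against 116, 137 and 140.5 CPM with DMSO. The first DMSO library came within 1 CPM of the highest treated one, and the other DMSO libraries lay well above. The log2 fold change was -0.24 (SE 0.07, edgeR adjusted p = 0.0255), a change of -15.1%. Leaving out replicate 2 or 3 of MHCC-97H with DMSO, or replicate 2 of MHCC-97H with H3B-8800, ended the call (adjusted p = 0.0962, 0.122 and 0.113). A fit of the 6 MHCC-97H libraries alone (-0.18, adjusted p = 0.112) and upper-quartile scaling also ended it. The call stood in 6 of 11 other ways of processing. An antisense RNA, ABALON, overlaps 43% of the exonic length of BCL2L1, and the strand setting of the counting is not given in the sources used here. BCL2L2, the remaining pro-survival member, had 5.19, 3.04 and 62.2 CPM with H3B-8800 and 8.91, 75.9 and 12.7 CPM with DMSO. A single library stood out in each group, and the log2 fold change of -0.47 had an SE of 1.22.

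The effectors both had every treated MHCC-97H library below every control. BAK1 had 161, 156 and 169 CPM with H3B-8800, against 196, 205 and 201 CPM with DMSO. That gap exceeded the spread within either group, at a log2 fold change of -0.31 (SE 0.09, edgeR adjusted p = 0.0161). As for BCL2L1, the call ended without either of these DMSO libraries (adjusted p = 0.0548 and 0.0523) or that treated one (0.0629). BAX had 44.9, 41.9 and 41.3 CPM with H3B-8800 and 48.2, 52.5 and 48.1 CPM with DMSO. Its log2 fold change of -0.22 (SE 0.08) missed the threshold at an adjusted p of 0.0671. It passed with a block for the replicate number (adjusted p = 0.0488), without HCT-116 H3B-8800 replicate 2 (0.0196) and without HCT-116 H3B-8800 replicate 3 (0.0403).

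BID was the BH3-only gene that fell. It had 40.8, 39.7 and 43.5 CPM with H3B-8800, against 52.2, 51.6 and 51.6 CPM with DMSO. The 3 controls lay within 1.01-fold of each other and above all treated libraries, and the log2 fold change was -0.33 (SE 0.06, edgeR adjusted p = 0.0032), a change of -20.3% with a 95% interval from -27.3% to -12.5%. BAD had 32.4, 32.6 and 43.1 CPM with H3B-8800 and 37.1, 37.3 and 48.6 CPM with DMSO. The third library of each group was the high one, and the log2 fold change of -0.19 (SE 0.15) was not called. BBC3 had 15.5, 14.0 and 15.6 CPM with H3B-8800 and 17.1, 18.4 and 19.4 CPM with DMSO. Although these groups did not overlap, the log2 fold change of -0.28 had an SE of 0.44, because the fit shares one dispersion over all 18 libraries and BBC3 varied widely under the other labels. PMAIP1 had 12.6, 12.0 and 11.6 CPM with H3B-8800 and 13.7, 14.2 and 10.5 CPM with DMSO (log2 fold change -0.09, SE 0.11). BCL2L11 had 16.7, 16.5 and 16.5 CPM with H3B-8800 and 17.4, 17.5 and 12.5 CPM with DMSO (0.07, SE 0.56); both groups overlapped for these last genes. For BCL2L1, BAX, BAK1, BID and BBC3, 5 of the 10 genes, treated libraries did not overlap the controls and lay lower, and 47.6% of all genes had no overlap in one direction or the other.

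**Figure D3:**
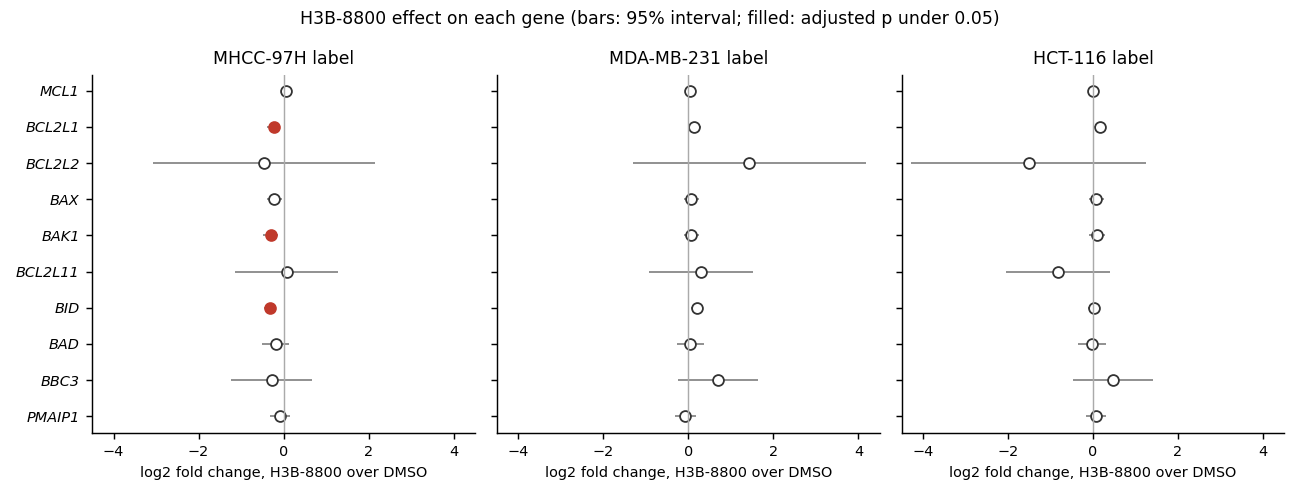
Log2 fold change of H3B-8800 over DMSO (horizontal axis) for each gene, by label; lines are 95% intervals and filled points have an adjusted p under 0.05. Filled points are BCL2L1, BAK1 and BID under the MHCC-97H label, all left of 0, and the intervals of BCL2L2, BCL2L11 and BBC3 are the widest.

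Fold changes across all genes went with base composition, and of the 3 member calls that of BID was kept when a trend on GC content and length was taken out. No correlation was computed over the 10 members alone. Under the MHCC-97H label Spearman's rho of the log2 fold change was -0.529 with transcript GC content and 0.358 with exonic length, across 14223 genes that share the same libraries. In 4 classes of equal size by GC content, genes of the lowest class (31.8% to 43.2%) had a median of 0.24 and those of the highest (57.6% to 74.7%) a median of -0.25. BAX, BAK1, BAD and BBC3 lie in that highest class, and BCL2L1, BCL2L2 and BID in the one below it (49.7% to 57.6%, median -0.15). MCL1, BCL2L11 and PMAIP1 lie in the class above the lowest (43.2% to 49.7%, median 0.04), and none of the 10 in the lowest. With a trend on GC content and length removed from each library, BCL2L1 was at -0.008 (SE 0.05, edgeR adjusted p = 0.987), BAK1 at -0.03 (SE 0.06, adjusted p = 0.799) and BAX at 0.06 (SE 0.06, adjusted p = 0.626). BID stayed at -0.22 (SE 0.07, adjusted p = 0.0403), and 14.7% of all genes were then called. With library totals as the scaling, 1 member was called higher (MCL1) and 1 lower (BID, -0.19, adjusted p = 0.0444), while BCL2L1 (-0.10, adjusted p = 0.285) and BAK1 (-0.18, adjusted p = 0.138) were not. In that setting 20% of all genes were called, 2501 of the 2847 called genes being higher. BID was called in all of 11 other ways of processing and in all of 18 fits that each left out 1 library, at -0.37 to -0.19. Under MDA-MB-231 and HCT-116 the rho with GC content had the opposite sign, 0.319 and 0.181.

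**Figure D4:**
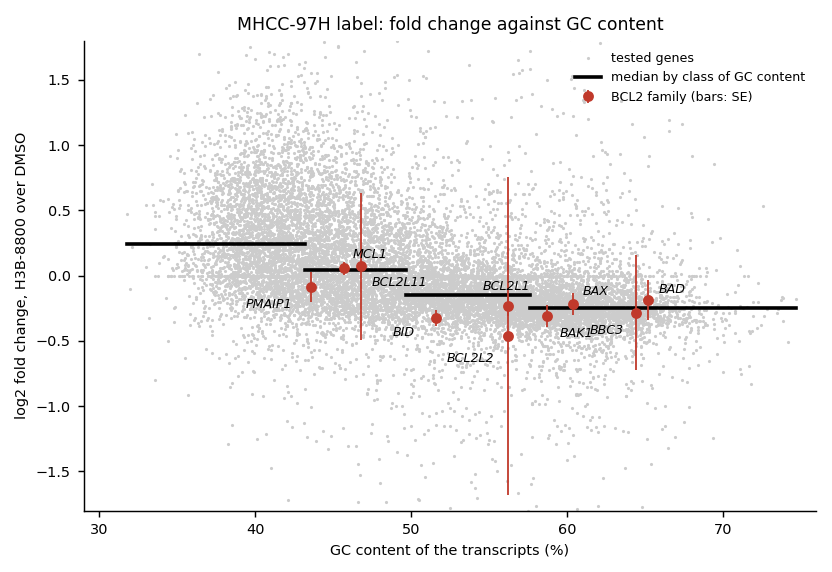
Log2 fold change of H3B-8800 over DMSO under the MHCC-97H label against GC content of the transcripts (percent) for all tested genes (grey; the axis stops at 1.8 on either side) and the 10 family genes (red, with SE), with the median by class of GC content (black). The medians step down from 0.24 to -0.25. BID lies below the median of its class, as do BCL2L1, BCL2L2, BAK1, BBC3 and PMAIP1.

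**Figure D5:**
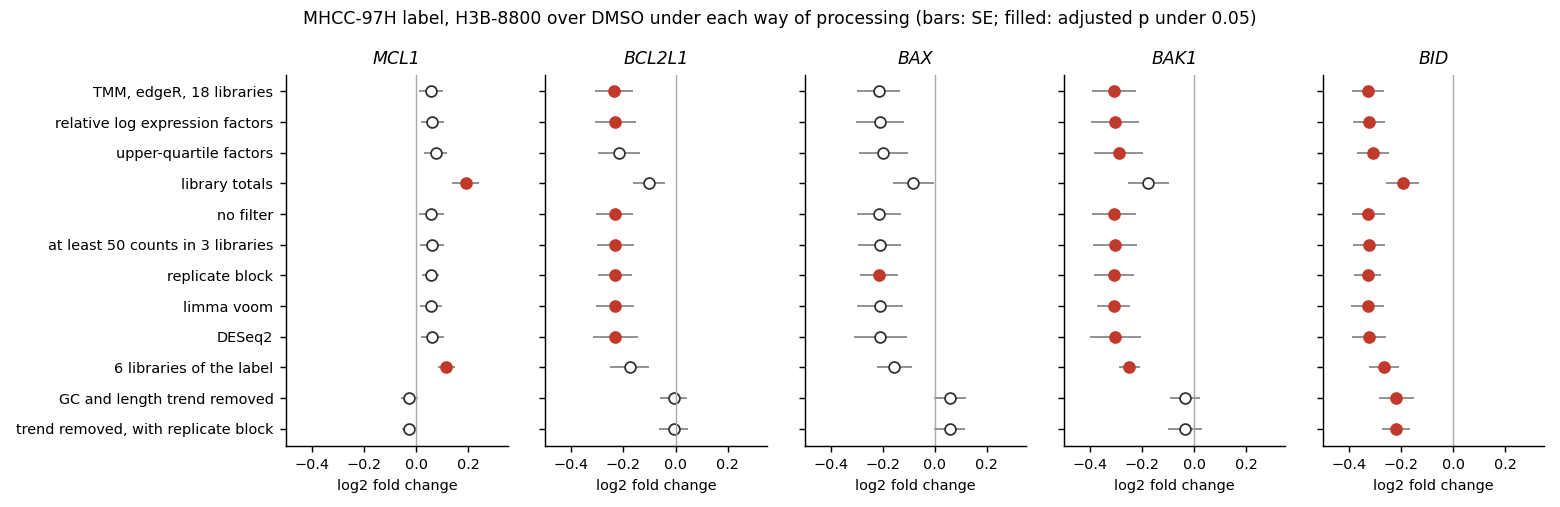
Log2 fold change under the MHCC-97H label for MCL1, BCL2L1, BAX, BAK1 and BID (panels) under each way of processing (rows); lines are SE and filled points have an adjusted p under 0.05. BID is filled in every row, and BCL2L1, BAX and BAK1 move to about 0 with the GC and length trend removed.

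Under the other labels, MDA-MB-231 and HCT-116, no member was called after H3B-8800 by edgeR, DESeq2 or limma voom, and few genes were (0.0351% under either label by edgeR). At an unadjusted p under 0.05 edgeR had 1 member of 10 under the MDA-MB-231 label, BID, as it had 1024 of all genes. BID had 59.1, 50.9 and 53.6 CPM with H3B-8800 and 50.04, 47.4 and 45.7 CPM with DMSO under that label. The lowest treated library was just above the highest control, at a log2 fold change of 0.19 (SE 0.06, adjusted p = 0.545). BCL2L1 had 117, 125 and 124 CPM with H3B-8800 and 112, 111 and 108 CPM with DMSO, again without overlap (0.14, SE 0.07, adjusted p = 0.718). These 2 were the members without overlap, both higher, where 18.5% of all genes had none. Under the HCT-116 label BCL2L1 had 115.5, 134 and 127 CPM with H3B-8800 and 110.4, 118 and 109.6 CPM with DMSO. One treated library lay among the controls, and the log2 fold change was 0.16 (SE 0.07, adjusted p = 1), which made BCL2L1 the 1 member at an unadjusted p under 0.05 (654 genes in all). BID under the HCT-116 label was at 0.02 (SE 0.06), with 56.1, 55.6 and 56.4 CPM with H3B-8800 inside the control range of 52.9 to 58.5 CPM. No member was free of overlap there, against 7% of all genes. Averaged over both labels BCL2L1 was at 0.15 (SE 0.05, unadjusted p = 0.0102, adjusted p = 0.501) and BID at 0.11 (SE 0.04, adjusted p = 0.6135), with 0 members and 0.0422% of genes called and 1082 genes at an unadjusted p under 0.05.

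The difference of the H3B-8800 effect between labels was tested in the same fit, as the effect under the MHCC-97H label minus the mean effect under the other labels. It was called for 4 members, BCL2L1, BAX, BAK1 and BID, all more negative under the MHCC-97H label, where 25.4% of all genes were called and 13.2% in that direction. BID had the largest difference of the 4, -0.43 (SE 0.08, edgeR adjusted p = 0.0031). BCL2L1 differed by -0.39 (SE 0.09, adjusted p = 0.0079) and BAK1 by -0.39 (SE 0.10, adjusted p = 0.0153). The BAX difference of -0.29 (SE 0.10, adjusted p = 0.0492) lay at the threshold. It kept its call in 2 of 10 other ways of processing and in 3 of 18 fits without 1 library. With the GC and length trend removed only BID kept a difference (-0.30, SE 0.08, adjusted p = 0.0264) among the members. MCL1 showed a difference of 0.03 (SE 0.06, adjusted p = 0.781), with a 95% interval of the change in ratio from -6.26% to 11.3%.

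BCL2L2, BCL2L11 and BBC3 had wider largest within-group spreads than most genes, reaching at least 2-fold for BCL2L2 in every group and for the other 2 in groups labelled MDA-MB-231 or HCT-116 only. Under the MHCC-97H label BCL2L11 spread by 1.01-fold with H3B-8800 and 1.39-fold with DMSO, and BBC3 by 1.11-fold and 1.13-fold. The highest of 3 libraries exceeded the lowest by up to 20.5-fold for BCL2L2, 5.65-fold for BCL2L11 and 3.05-fold for BBC3. Among 10625 genes averaging at least 5 CPM, 6.37% had a spread of at least 3-fold in some group, and the median gene 1.34-fold. MCL1 spread by at most 1.13-fold, less than 93.1% of those genes. BCL2L2 under the MDA-MB-231 label had 2.34, 33.1 and 3.37 CPM with H3B-8800, against 4.94, 2.57 and 6.95 CPM with DMSO, and under the HCT-116 label 8.55, 3.11 and 2.62 against 4.85, 5.17 and 31.0 CPM. The high values fell in MDA-MB-231 H3B-8800 replicate 2 and HCT-116 DMSO replicate 3, and all 6 groups spread by at least 2-fold. BCL2L11 under the MDA-MB-231 label had 5.92, 11.8 and 15.2 CPM with H3B-8800 and 3.27, 5.20 and 18.5 CPM with DMSO, and under the HCT-116 label 8.96, 16.3 and 3.07 against 17.9, 17.8 and 14.7 CPM. BBC3 took values of either 13.0 to 16.2 or 33.9 to 41.1 CPM under these labels. It had 33.9, 33.9 and 39.7 CPM with H3B-8800 and 13.0, 13.4 and 39.7 CPM with DMSO under MDA-MB-231, and 35.6, 41.1 and 13.7 against 16.2, 14.8 and 34.6 CPM under HCT-116. HCT-116 DMSO replicate 3 was among the high libraries of BCL2L2 and BBC3, while HCT-116 H3B-8800 replicate 2 was high for BBC3 and BCL2L11 and low for BCL2L2. The cause of the spread was not tested.

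Exons of several members overlap other genes, which matters for counts whose rule for shared reads is not given. The exons of BCL2L2 share 813 bases (19.4% of its exonic length) on the same strand with the readthrough gene BCL2L2-PABPN1, which the table counts separately. BCL2L2-PABPN1 had 9.10, 11.5 and 2.33 CPM with H3B-8800 and 3.64, 4.06 and 4.26 CPM with DMSO under the MHCC-97H label. Its low treated library was the one in which BCL2L2 was high. Among the DMSO libraries the one high for BCL2L2 had 4.06 CPM of BCL2L2-PABPN1, between the other values. Summing both genes, an alternative chosen after seeing the data, gave a log2 fold change of -0.23 (SE 0.89, adjusted p = 0.911) for BCL2L2. BAD shares 404 bases (23.7%) with GPR137 on the opposite strand. On the opposite strand ABALON overlaps 43% of BCL2L1, as given above, and MIR4435-2HG 10.9% of BCL2L11. The remaining overlaps covered under 5% of a member.

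The balance between MCL1 and its partners was compared as log2 ratios of the levels per length, 3 ratios under 3 labels, with exact two-sided permutation tests, for which 3 against 3 libraries cannot give a p under 0.1. In the MHCC-97H libraries the log2 ratio of MCL1 to BCL2L1 was 3.02 ± 0.13 with H3B-8800 and 2.74 ± 0.13 with DMSO (SD, n = 3 each), higher by 0.29 (exact p = 0.1, adjusted over the 9 tests 0.3). The ratio of MCL1 to BAK1, which MCL1 holds in check, was 1.90 ± 0.10 with H3B-8800 and 1.54 ± 0.01 with DMSO, higher by 0.36 (exact p = 0.1, adjusted 0.3). Treated and control libraries did not overlap for either ratio. The ratios were not recomputed after removal of the GC and length trend. The fitted log2 fold changes were then -0.03 for MCL1, -0.008 for BCL2L1 and -0.03 for BAK1, with next to no difference between them. MCL1 to PMAIP1 was higher by 0.13 (exact p = 0.4) under this label and by 0.12 (exact p = 0.1) under the MDA-MB-231 label. In that last case treated and control libraries did not overlap either. The remaining ratios differed by -0.16 to -0.02, with exact p of 0.2 to 0.9.

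Around the family, some genes that control MCL1 protein turnover rose under the MHCC-97H label. Of 10 such genes 4 rose and 0 fell, where 12.9% of all genes were called higher and 14.7% lower, and the list median was 0.37 against -0.06 over all genes. After removal of the GC and length trend 3 were called higher and 1 lower, and the list median was 0.08. Of all 14234 tested genes 2093 (14.7%) were then called, 974 of them higher. USP9X, a deubiquitinase that stabilises MCL1, averaged 75.0 ± 2.40 CPM with H3B-8800 and 28.8 ± 5.27 CPM with DMSO (SD, n = 3 each). All treated libraries were above all controls (log2 fold change 1.38, SE 0.22, edgeR adjusted p = 0.0016). HUWE1, a ubiquitin ligase that marks MCL1 for degradation, averaged 511 ± 25.9 and 358 ± 27.9 CPM (0.51, SE 0.07, adjusted p = 0.00072), again without overlap. USP13, another deubiquitinase of MCL1, rose by 0.54 on the log2 scale (SE 0.09, adjusted p = 0.0019) and BTRC, a substrate receptor of a ubiquitin ligase complex, by 0.38 (SE 0.13, adjusted p = 0.0358). Genes known for opposite actions on MCL1 thus moved the same way. USP9X, HUWE1 and USP13 remained called higher with library totals and after removal of the GC and length trend (0.89, 0.26 and 0.31), while BTRC did not with the trend removed (0.21, adjusted p = 0.157) and MAPK8, a kinase of MCL1, was then called lower (-0.40, adjusted p = 0.0442). The difference from the other labels was called for the same 4 genes, at 1.58 for USP9X, 0.53 for HUWE1, 0.58 for USP13 and 0.44 for BTRC.

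The other pathway lists held calls in either direction for the MHCC-97H libraries. Over all 5 lists around the family, 51 tested genes in all, edgeR called 0 under the MDA-MB-231 label (7 at an unadjusted p under 0.05) and 0 under the HCT-116 label (3 at an unadjusted p under 0.05). Of 13 genes downstream of the mitochondrion 1 rose and 3 fell. The shares over all genes, 12.9% higher and 14.7% lower, apply to this and the other lists. APAF1, the scaffold of the apoptosome, rose by 0.63 (SE 0.20, edgeR adjusted p = 0.0291) but lost its call once the GC and length trend was removed (0.28, adjusted p = 0.243). DFFA, the inhibitor of the caspase-activated nuclease, fell by 0.24 on the log2 scale (adjusted p = 0.0051), HTRA2 was at -0.37 and AIFM1 at -0.19, and of these DFFA was also called with the trend removed (-0.29). Of 9 outer membrane partners DNM1L, the fission GTPase, rose by 1.08 (SE 0.26, adjusted p = 0.0083), at 57.4 ± 3.09 CPM with H3B-8800 and 27.2 ± 5.71 CPM with DMSO. VDAC3, TOMM22 and MFN2 fell in that list (-0.22, -0.23 and -0.17). DNM1L kept its call with library totals and with the trend removed (0.76). Of 8 genes of the death receptor route to BID cleavage 1 was called, TNFRSF10A (-0.20, SE 0.06, adjusted p = 0.016). The falls in these lists were not called with library totals as the scaling, where 1, 2 and 2 genes of the 3 lists were called higher and none lower. Of all 14234 tested genes 2847 (20%) were called in that setting, 2501 of them higher.

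By the profile over all 18 libraries, 5 genes lay nearest to MCL1 among 9232 genes averaging at least 10 CPM. After centring log2 CPM within each line label, the root mean square difference from MCL1 was 0.0301 for PYGL, 0.0334 for TM9SF2 and for MELK, 0.0353 for DENR and 0.0362 for SIAH1, against a median of 0.149 over all candidates. The log2 fold changes of the 5 under the MHCC-97H label were 0.0066 to 0.08, and none was called (edgeR adjusted p = 0.31 to 0.98). Closeness to MCL1 over these same libraries had selected them, so this says nothing further about MCL1. A gene that varies little is near MCL1 by this measure.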

How the data were processed

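The authors deposited whole-number read counts per Ensembl gene, not normalized, for 18 libraries, and per the submitters' processing notes fastp, HISAT2 and the build GRCh38 were used. How reads were assigned to genes, strand included, and the kit were not given in the sources used here. GENCODE release 29 on GRCh38 gave names, positions, exonic length and GC content for 20224 of 20263 genes. The counts entered edgeR 4.0.16 under R 4.3.3, with TMM scaling, filterByExpr by group, 1 mean per group over 18 libraries and the robust quasi-likelihood F test, adjusted by Benjamini-Hochberg over 14234 genes and called under 0.05. CPM are scaled by TMM, except marker genes, which are per library total. Ratios were compared by exact permutation. Alternatives were other scalings and filters, a replicate block, removal from each library of a GC and length trend (natural splines, 5 degrees of freedom), limma voom 3.58.1, DESeq2 1.42.0, fits by label and leaving out each library. The fitting code was tested on simulated data.

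The 10 genes, the other lists and these choices were made with earlier results of these data known. All members were named, with up to 4 called genes of each other list in order of adjusted p, the 5 genes nearest to MCL1, and overlapping genes. MAPK8 and BCL2 were named after their values were seen.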

Additional observations from a re-analysis of the deposited data

Results flagged for a closer look

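The effect of H3B-8800 differed between labels for 4 of the 10 genes, by the test of the difference itself. The effect under the MHCC-97H label minus the mean effect under the other labels (MDA-MB-231 and HCT-116) was -0.43 for BID, -0.39 for BCL2L1 (-0.386), -0.39 for BAK1 (-0.391) and -0.29 for BAX on the log2 scale. Under the MHCC-97H label the values were -0.33, -0.24, -0.31 and -0.22 in that order, and over the other labels 0.11, 0.15, 0.08 and 0.07. In this comparison 25.4% of all genes were called. After removal of the GC and length trend the difference was called for BID (-0.30, edgeR adjusted p = 0.0264) but not for BCL2L1 (-0.12, adjusted p = 0.258), BAK1 (-0.08, adjusted p = 0.564) or BAX, which was at 0.0237 (adjusted p = 0.949). The BAX call also held in only 2 of 10 other ways of processing and in 3 of 18 fits that each left out 1 library. It was lost with limma voom, with DESeq2 and with each other scaling.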

How the results depend on the processing

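Of 10 genes 3 were called for the H3B-8800 effect under the MHCC-97H label, where 27.6% of all genes were called. Without the GC and length trend 1 was called (14.7% of all genes), also when the replicate block was added (1, and 18% of all genes). When 1 library was left out, 1 to 4 were called. The low count of 1 came without replicate 2 or 3 of MHCC-97H with DMSO or replicate 2 of MHCC-97H with H3B-8800, and was BID each time. The difference between labels was called for 4 genes (25.4% of all genes), and for 2 with library totals (19.8%). It was called for 1 with the trend removed (12.8%) and for 1 with the trend and the replicate block (16.6%). Without 1 library it was called for 3 to 4. The DMSO level of the MHCC-97H label was called for 6 genes, and for 5 to 7 without 1 library; BCL2L11 was called higher with trend and block (1.16, adjusted p = 0.0105). No member was called under the other labels in any alternative. The BAX difference changed sign to 0.0237 with the trend removed and 0.0241 with trend and block. In the DMSO level BCL2L1 turned to -0.0354 with library totals, -0.0783 with the trend removed and -0.0797 with trend and block, BID to -0.258 with library totals, and BAD to -0.5455 and -0.5521 with the trend removed, without and with the block. The cause of these changes was not tested. In the difference between labels the median of all genes was -0.0638 with TMM and 0.0831 with library totals. Fits limited to the labels compared could not differ where all 18 libraries enter.

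The replicate numbers were not treated as pairs. Same-numbered libraries correlated in their deviations, over 14234 genes, at -0.05, 0.056 and 0.015 for MHCC-97H, 0.117, 0.066 and 0.021 under MDA-MB-231 and 0.05, 0.192 and 0.032 under HCT-116. Over these genes every library correlated best with its own number only under MDA-MB-231. Over 10625 genes of at least 5 CPM this held under no label. The same-number values were then 0.221, 0.082 and 0.059 under MDA-MB-231 and 0.129, 0.333 and 0.14 under HCT-116. H3B-8800 replicate 3 correlated better with DMSO replicate 2 under MDA-MB-231 (0.099) and with DMSO replicate 1 under HCT-116 (0.241). The replicate block called 4 members under the MHCC-97H label, adding BAX (adjusted p = 0.0488), and changed no other call of a member. Log2 ratios of MCL1 to BCL2L1 and to BAK1 under the MHCC-97H label were also compared within numbers. The differences were 0.288 and 0.3637, each with exact p = 0.25, the smallest p that this paired test can give. Without 1 library they were 0.2186 to 0.3611 and 0.3167 to 0.417.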

Other observations

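BCL2 itself, the pro-survival founder of the family, was scarce in every group, with means of 0.410 to 0.656 CPM. In DMSO libraries BNIP3, a mitophagy receptor with a BH3-like segment, averaged 1291 ± 22.5 CPM for MHCC-97H, against 293 and 307 CPM for MDA-MB-231 and HCT-116 (n = 3 each), a log2 difference of 2.11 (SE 0.03, edgeR adjusted p = 6.5e-18). BIK, a BH3-only protein of the endoplasmic reticulum, stood at 50.9 CPM against 11.2 and 10.1 CPM (2.26, SE 0.11, adjusted p = 1.881e-11), and BOK, an effector-like member, at 12.9 CPM against 30.0 and 30.9 CPM (-1.24, SE 0.09, adjusted p = 1.358e-09). BCL2L15 had 0 counts in DMSO libraries of the MHCC-97H label, a limit of 0.0797 to 0.106 CPM of the library total (3 counts, counting error only), and averaged 9.53 and 10.2 CPM under the others. Of 11 tested relatives 3 were called higher and 6 lower in this comparison, no larger a share than the 84.6% of all genes called, and BNIP3, BIK and BOK kept their directions under every scaling tried.

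After H3B-8800 under the MHCC-97H label BNIP3 (-0.13, SE 0.04, edgeR adjusted p = 0.014) and BOK (-0.30, SE 0.10, adjusted p = 0.0342) were the 2 of 11 relatives called, both lower, where 27.6% of all genes were called and 14.7% lower. Neither was called with library totals as the scaling (0.0004 and -0.16) or once the GC and length trend was removed (-0.08 and -0.02).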
